A study of Bos indicus and Bos taurus with 17 samples.

Results

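The genes for iron storage, uptake, reduction, export and sensing were followed in cells recovered from the milk of Kashmiri and Jersey cattle. The list held 10 names (FTH1, TFRC, SLC40A1, SLC11A1, SLC11A2, HMOX1, STEAP3, STEAP4, ACO1 and IREB2), looked up in the table of all genes by symbol. Values were found for 9 of them among 21631 distinct names, and SLC11A2 was not analysed here. The iron genes were mostly higher in Jersey than in Kashmiri cattle, 8 of 9 at D15 (day 15 in milk). All genes had a median log2 ratio of Jersey over Kashmiri of -0.13 on that day. Of the 8, the TFRC entry (1.14-fold) and IREB2 (1.20-fold) differed little. STEAP4 and SLC11A1 were at least 6.84-fold higher on every day, and STEAP4 spanned 0.391 FPKM in the Kashmiri breed at D15 to 391 FPKM in the Jersey breed at D250. ACO1 was the exception, lower in Jersey at D15 and D250 but 1.62-fold higher at D90.

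Cells take up transferrin-bound iron through the transferrin receptor (TFRC). The iron is then reduced by STEAP metalloreductases, moved into the cytosol by a divalent metal transporter and stored in ferritin, whose heavy chain (FTH1) oxidises it. Ferroportin (SLC40A1) is the known cellular iron exporter, and haem oxygenase 1 (HMOX1) frees iron from haem. The iron regulatory proteins ACO1 and IREB2 bind iron-responsive elements in mRNAs such as those of ferritin and the transferrin receptor. Macrophages recycle iron, neutrophils and macrophages withhold it from microbes, and the lactating mammary epithelium passes some of it into milk.

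RNA was sequenced from milk cells captured on magnetic beads with an antibody against keratin 18, an epithelial protein, and not from gland tissue. The paper checked purity by qPCR in samples of D90. It reports KRT18 and CSN2 as higher, and LSP1, CD18 and HBA as lower, in captured than in unsorted milk cells. From this the paper proposes that few other cell types remained. The labels gave 17 samples from cows in lactation 2 or 3, with 2 for Jersey at D90 and 3 for each other group of breed (Kashmiri or Jersey) and day (D15, D90 or D250). The paper instead describes 3 cows of each breed, all in lactation 3, sampled on each of these days. By that account the days of a breed share cows. The samples of a day shared a month (March, July or December), so that day in milk and month cannot be told apart. Expression is given as the authors' FPKM, which scales the fragments of a transcript by its length and by the library size, with 1 value for each gene and group. Since no value per cow was at hand, the groups have no error and were not tested against each other, and a single cow could carry a group value. Each group enters several of the comparisons, which therefore share values. Where 3 values follow each other for a breed, they stand in the order D15, D90, D250.

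The cell type markers differed between the groups. The summed FPKM of 9 neutrophil marker genes, such as S100A8, was 204, 542 and 663 for Kashmiri and 4963, 5880 and 13997 for Jersey. That of 12 macrophage marker genes was 118, 528 and 537 for Kashmiri and 1098, 2392 and 2777 for Jersey. All 12 macrophage markers were higher in Jersey at D15 and D90 but 7 at D250, where CD68, CD14 and the ADGRE1 entry (909 FPKM, joined with VAV1) made up most of the sum, C1QA, C1QB, C1QC, MSR1 and VSIG4 were lower, and the median log2 ratio was 0.10. The 11 epithelial marker genes found summed to 7805, 1035 and 4204 FPKM for Kashmiri and to 3247, 304 and 2378 FPKM for Jersey. KRT19, ELF5 and XDH made up most of each sum. Of the 11 genes, 2 were higher in Jersey at D15 (CLDN4 and the entry of KRT8), 1 at D90 and 0 at D250. Their median log2 ratio of Jersey over Kashmiri was -0.75, -1.97 and -1.19. KRT18, the gene of the protein used for capture, was at 51.3, 9.13 and 11.5 FPKM for Kashmiri and at 33.7, 1.59 and 4.51 FPKM for Jersey. The 10 T and NK cell marker genes were highest in Kashmiri at D90, with a sum of 1645 FPKM, and the other groups lay between 103 and 431 FPKM. The 5 red blood cell markers found, HBB among them, summed to less than 1 FPKM in every group, and 6 B cell markers to between 8.44 and 78.0 FPKM. Outside the red blood cell list, no marker found was listed at 0. Fewer cells of a type and less RNA per cell cannot be told apart in these values, and the part of the cell makeup in the iron gene values was not tested.

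**Figure D1:**
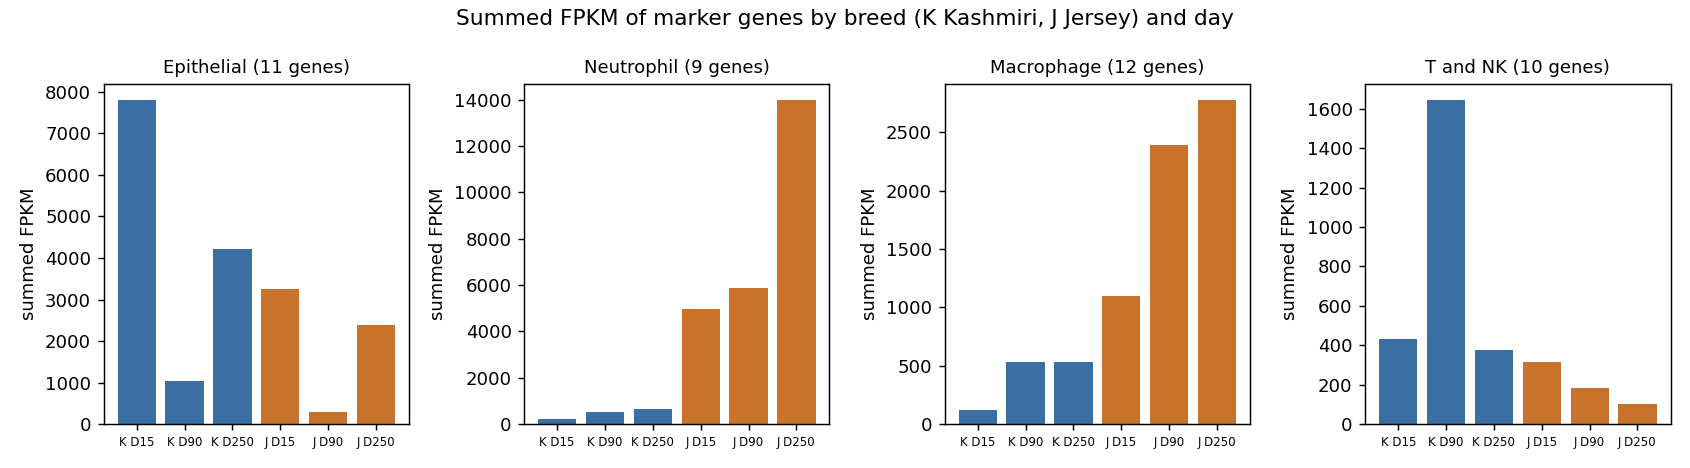
Summed FPKM of the epithelial, neutrophil, macrophage and T and NK cell marker genes found (y axes, linear from 0) in the 6 groups of breed and day (x axes), with 1 bar for each group value, Kashmiri (K) in blue, Jersey (J) in orange and no error available. The neutrophil sum is between 4963 and 13997 FPKM for Jersey and between 204 and 663 FPKM for Kashmiri.

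Ferritin heavy chain was the most abundant of the iron genes. Kashmiri values of FTH1 were 1005, 4004 and 2689 FPKM. For Jersey it had 4706 FPKM at D15 and 12092 FPKM at D250, and was listed at 0 at D90. The 0 stood between high values and gives no level: of 58 names with at least 1000 FPKM in each of the 5 other groups, FTH1 was the only one listed at 0 in Jersey at D90. In Kashmiri at D90, 2 of 48 such names were listed at 0, and in the other 4 groups none. GAPDH, a gene that most cells use, was listed at 0 in 4 groups and did not exceed 0.0328 FPKM in any. Unlike FTH1, GAPDH was thus listed at or near 0 in every group. The paper used GAPDH as a reference gene for qPCR and reports it as stable. Whether the listed values give its level was not tested. FTH1 was 4.68-fold higher in Jersey than in Kashmiri at D15 and 4.50-fold higher at D250, with log2 ratios of 2.23 and 2.17. All log2 ratios are of FPKM with a pseudocount of 1, which understates the change of low genes, while folds are plain ratios of FPKM. FTL, the ferritin light chain, was not analysed here.

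Ferroportin was low in most groups and highest late in Jersey cattle. The level of SLC40A1 was 1.80, 6.85 and 10.1 FPKM for Kashmiri, and 11.6, 10.1 and 51.9 FPKM for Jersey. The breeds overlapped, since Jersey at D90 was just below Kashmiri at D250. The gene was 6.40-fold higher in Jersey at D15, 1.47-fold higher at D90 and 5.12-fold higher at D250. FTH1 exceeded SLC40A1 in every group in which it was above 0, by a factor of 557, 584 and 265 for Kashmiri and of 407 and 233 for Jersey at D15 and D250. This quotient is taken within a group and does not depend on how the groups are scaled.

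SLC11A1, also called NRAMP1, moves metal ions out of the phagosome of macrophages and neutrophils. Its Kashmiri values were 8.20, 32.6 and 40.0 FPKM, and its Jersey values 139, 223 and 312 FPKM. Every Jersey value exceeded every Kashmiri value, and both breeds had their lowest value at D15 and their highest at D250. The fold of Jersey over Kashmiri was 16.9, 6.84 and 7.79, with log2 ratios of 3.92, 2.74 and 2.93. Beside it, all 9 neutrophil markers were also higher in Jersey on every day, and their sum differed by 24.3-fold, 10.9-fold and 21.1-fold. Of the 12 macrophage markers, all were higher in Jersey at D15 and D90 and 7 at D250. Their sum differed by 9.34-fold, 4.53-fold and 5.18-fold. The quotient of SLC11A1 over SLC40A1 was 4.54, 4.76 and 3.95 for Kashmiri, and 11.99, 22.1 and 6.003 for Jersey. A second, lower entry carried the same name, with 0.373, 0.658 and 2.08 FPKM for Kashmiri and 8.42, 11.7 and 25.7 FPKM for Jersey, so that it too was higher in Jersey on each day.

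TFRC was found only in an entry joined with ZDHHC19, and how much of the value belongs to either gene is unknown. The joined entry had 5.77, 9.60 and 8.66 FPKM for Kashmiri and 6.57, 29.7 and 22.2 FPKM for Jersey. The breeds were close at D15, with a log2 ratio of 0.16, and Jersey was higher at D90 (log2 ratio 1.53) and D250 (log2 ratio 1.26).

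Of the metalloreductases, STEAP4 differed most between the breeds. Kashmiri cattle had 0.391, 0.814 and 1.64 FPKM of it, and Jersey cattle 17.9, 137 and 391 FPKM. The lowest Jersey value was 10.9-fold the highest Kashmiri value. The fold of Jersey over Kashmiri was 45.9, 168 and 238, and with the pseudocount the log2 ratio was 3.77, 6.25 and 7.21. STEAP3, which reduces endosomal iron in red cell precursors, had Kashmiri values of 4.91, 4.78 and 7.90 FPKM and Jersey values of 12.97, 26.3 and 26.2 FPKM. Its breeds did not overlap either, but its largest fold was 5.51, at D90. The order of the pair turned with the breed. STEAP3 exceeded STEAP4 by 12.5-fold, 5.87-fold and 4.81-fold for Kashmiri, whereas STEAP4 exceeded STEAP3 by 1.38-fold, 5.20-fold and 14.9-fold for Jersey.

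HMOX1 stood at 15.1, 38.9 and 41.6 FPKM for Kashmiri and at 149, 118 and 65.3 FPKM for Jersey. Jersey was higher on each day, by 9.83-fold, 3.05-fold and 1.57-fold, but the log2 ratio of 0.64 at D250 turned to -0.11 with FPKM rescaled to the sum of the named genes without the milk protein genes. Jersey cattle had less of it at D250 than at D15 (log2 ratio -1.17) and Kashmiri cattle more (log2 ratio 1.40). Of the 12 macrophage markers, 7 were higher at D250 than at D15 for Jersey. Among them, CD68 had 169, 1211 and 996 FPKM, while C1QA was lower at D250, with 145, 60.3 and 12.01 FPKM. For Kashmiri, C1QA had 6.73, 31.3 and 24.2 FPKM and CD68 had 11.4, 281 and 268 FPKM.

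The iron regulatory proteins had unlike patterns. ACO1, a cytosolic aconitase that binds RNA when it lacks its iron-sulfur cluster, was at 118, 36.4 and 108 FPKM for Kashmiri and at 56.0, 59.0 and 59.0 FPKM for Jersey. Kashmiri at D90 had the lowest value, and the Jersey values lay between it and the other Kashmiri values. The epithelial marker sum was also lowest at D90 for Kashmiri (1035 FPKM). For Jersey that sum was 3247 FPKM at D15 and 304 FPKM at D90, while ACO1 was at 56.0 and 59.0 FPKM. IREB2, whose protein is degraded when iron is plentiful, was at 2.00, 2.55 and 4.47 FPKM for Kashmiri and at 2.40, 4.67 and 13.1 FPKM for Jersey. It was lowest at D15 and highest at D250 in both breeds. ACO1 exceeded IREB2 in every group, by 58.9-fold, 14.3-fold and 24.1-fold for Kashmiri, and by 23.3-fold, 12.6-fold and 4.51-fold for Jersey.

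**Figure D2:**
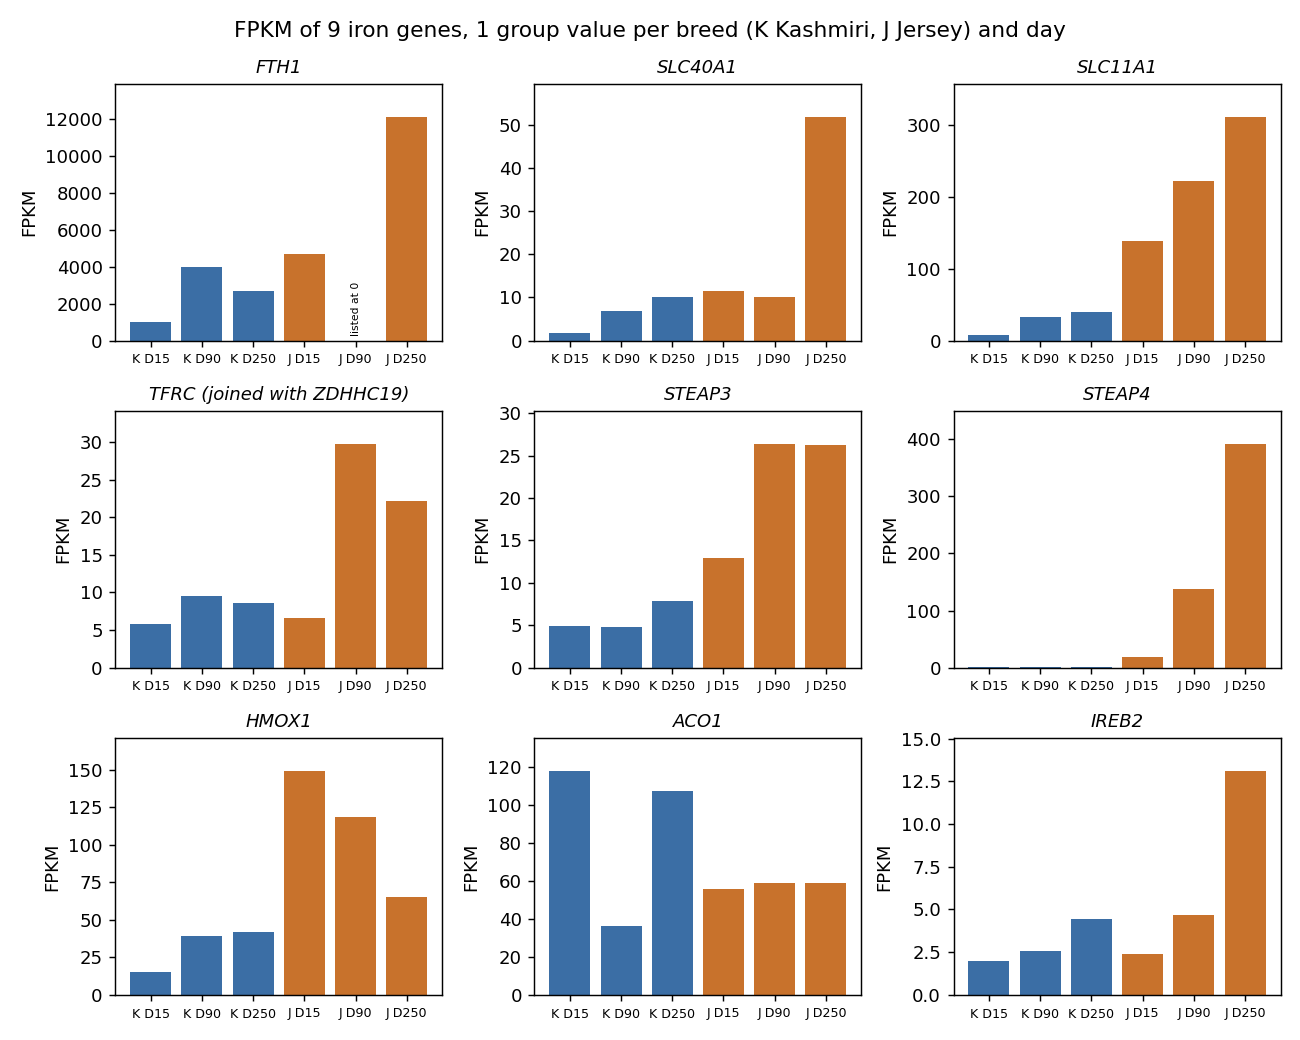
FPKM of the 9 iron genes (y axes, linear from 0 and separate for each gene) in the 6 groups of breed and day (x axes), with 1 bar for each group value, Kashmiri (K) in blue, Jersey (J) in orange and no error available. In these FPKM as deposited, SLC11A1, HMOX1, STEAP3 and STEAP4 have every Jersey value above every Kashmiri value, and FTH1 is listed at 0 in Jersey at D90.

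The breeds were then compared on each day. A gene with 1 FPKM or more in one or both of the groups was counted as past the limit where its log2 ratio was 2 or more, or -2 or less. At D15, 5 of 9 iron genes were past the limit, all higher in Jersey (FTH1, SLC40A1, SLC11A1, HMOX1 and STEAP4), against 8.57% of all 11202 genes considered in either direction and 6.45% that were higher. At D250, 4 of 9 were past it, again all higher in Jersey (FTH1, SLC40A1, SLC11A1 and STEAP4), against 12.3% of 11642 genes in either direction and 10.9% that were higher. At D90, SLC11A1, STEAP3 and STEAP4 were higher past the limit (6.58% of all genes were), and FTH1 was counted as lower because of its 0, which made 4 of 9 against 11.7% of 11209 genes. With entries listed at 0 left out, 3 of 8 were past it at D90, against 11.4% of all genes.

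The list was chosen with earlier results of these data known, so its place among all genes is a description. The iron genes as a list lay above the centre of all genes. Their median log2 ratio of Jersey over Kashmiri was 2.16, 1.53 and 1.61, while that of all genes was -0.13, -0.03 and -0.10. At a log2 ratio of 1 in either direction, 7, 6 and 7 of the 9 iron genes passed, against 28.9%, 32.9% and 34.5% of all genes. Of these, ACO1 was lower in Jersey at D15, and FTH1 was counted as lower at D90 through its 0. Every Jersey value was above every Kashmiri value for 4 of 9 iron genes and for 16.2% of 10310 genes considered on all days. SLC11A1 and STEAP4 were past the limit and higher in Jersey on all 3 days, as were 3.05% of these genes. Scaling bore on D250: the median of all genes moved to -0.52 with the upper quartile and to -0.74 with the sum, that of the iron genes to 1.149 and 0.91, and the ratios of FTH1 (1.67 and 1.41) and SLC40A1 (1.77 and 1.53) then missed the limit.

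**Figure D3:**
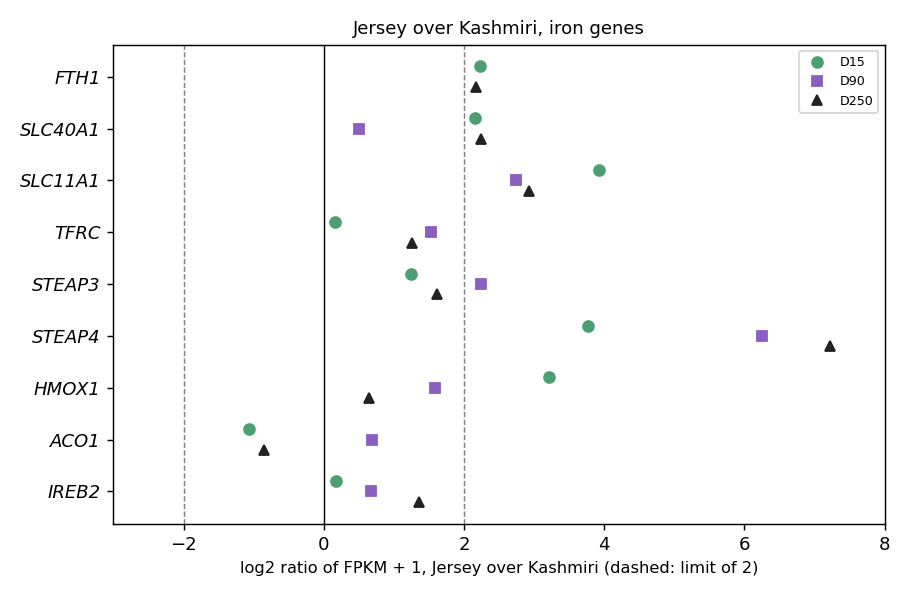
Log2 ratio of FPKM plus 1, Jersey over Kashmiri (x axis), of the 9 iron genes (y axis) at D15 (circles), D90 (squares) and D250 (triangles), with dashed lines at the limit of 2 either way and no point for FTH1 at D90. STEAP4 lies farthest to the right at D90 and D250 (6.25 and 7.21), ACO1 has points on both sides of 0, and the HMOX1 point at D250 (0.64) is the one that moves to -0.11 with FPKM rescaled to the sum.

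Few iron genes passed the limit between days within the Kashmiri breed. From D15 to D90, none of the 8 genes with at least 1 FPKM passed it, against 7.5% of 11297 genes, although FTH1 (log2 ratio 1.99) and SLC11A1 (1.87) came close and passed it with either rescaling. ACO1 had the lowest ratio, at -1.67. From D90 to D250, none of 9 passed, against 1.98% of 11414 genes, and the largest ratio was that of ACO1, at 1.54. From D15 to D250, SLC11A1 alone was past the limit (log2 ratio 2.16), against 4.05% of 11487 genes in either direction and 1.85% that were higher, and SLC40A1 was just under it at 1.99. The iron genes had median log2 ratios of 0.98, 0.504 and 0.93 in these comparisons, and all genes of -0.01, 0.03 and -0.04. At a log2 ratio of 1, 5, 1 and 4 iron genes passed, against 33.5%, 17.7% and 25.7% of all genes.

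In the Jersey breed, STEAP4 differed most between the days. It was 7.63-fold higher at D90 and 21.8-fold higher at D250 than at D15, with log2 ratios of 2.86 and 4.37. From D15 to D90, STEAP4 and the entry of TFRC (log2 ratio 2.02) were higher past the limit, as were 2.98% of all genes. FTH1 was counted as lower because of its 0, which made 3 of 9 genes against 6.76% of 11080, or 2 of 8 against 6.42% with entries at 0 left out. From D90 to D250, SLC40A1 was higher past the limit (log2 ratio 2.25), as were 3.72% of all genes, but it missed the limit with the sum rescaling (1.86). FTH1 was counted as higher from 0, which made 2 of 9 against 4.18% of 10955, or 1 of 8 against 3.89% with entries at 0 left out. From D15 to D250, SLC40A1 (2.08), STEAP4 and IREB2 (2.05) were higher past the limit, 3 of 9 against 12.6% of 11320 genes in either direction and 9.17% that were higher.

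The ratios of SLC40A1 and IREB2 from D15 to D250 in Jersey cattle went just under the limit with either rescaling, to 1.96 and 1.91 by the upper quartile and to 1.93 and 1.90 by the sum. The Jersey medians of the iron genes were 0.68, 0.48 and 1.36 in the 3 comparisons, and those of all genes -0.07, 0.15 and 0.07. The 0.48 from D90 to D250 counts FTH1 from its 0, and was 0.24 with entries at 0 left out, 0.22 with the upper quartile and 0.07 with the sum. At a log2 ratio of 1, 3, 4 and 7 iron genes passed (the first 2 counts with FTH1 through its 0, the last with HMOX1 as lower), against 29.8%, 20.9% and 42.4% of all genes.

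**Figure D4:**
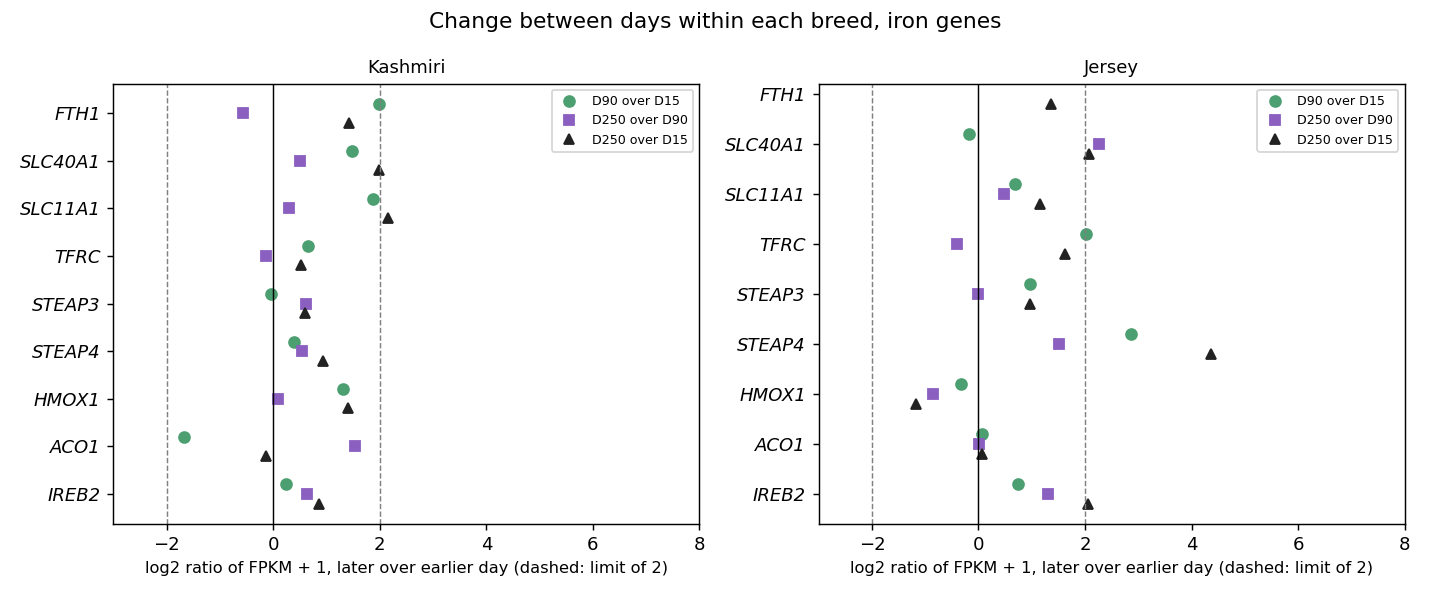
Log2 ratio of FPKM plus 1, later over earlier day (x axes), of the 9 iron genes (y axes) in Kashmiri and Jersey cattle for the 3 pairs of days, with no point for a comparison with a value of 0. HMOX1 at D250 over D15 lies at 1.40 for Kashmiri and -1.17 for Jersey, and STEAP4 reaches 4.37 for Jersey.

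How the days differed was set side by side for the breeds, and the difference between breeds was not tested. From D15 to D250 the log2 ratio was 1.42 and 1.36 for FTH1 and 1.99 and 2.08 for SLC40A1 (Kashmiri first). With the sum rescaling these became 2.43 and 1.21 for FTH1 and 2.78 and 1.93 for SLC40A1, so that how alike the breeds were depended on the scaling. The larger step of SLC40A1 lay between D15 and D90 for Kashmiri (1.48) and between D90 and D250 for Jersey (2.25). ACO1 had ratios of -1.67 and then 1.54 over these steps for Kashmiri, whereas its Jersey values stayed between 56.0 and 59.0 FPKM. The ratio of STEAP4 from D15 to D250 was 3.45 higher on the log2 scale for Jersey than for Kashmiri, and that of HMOX1 differed by -2.57.

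For each iron gene above 0 in all 6 groups, the genes with the most similar pattern were sought among 9558 candidates, by the root mean square difference of log2 values centred on the mean of the 6 groups. STEAP4 was nearest to TCN1, a vitamin B12-binding protein of neutrophil granules, with a difference of 0.21, and to MEFV (0.29), which encodes pyrin. SLC11A1 was nearest to CLEC12A, a myeloid inhibitory receptor (0.20), and to PARM1 (0.21). HMOX1 was nearest to GRN, which encodes progranulin (0.17), and to RAB3IL1 (0.18). The nearest genes of TFRC were MEMO1 (0.16) and POU2F2 (0.17), of STEAP3 DIRC2 (0.12) and RUNX1 (0.16), and of SLC40A1 TIAM1 (0.32) and PLXNC1 (0.34). ACO1 was nearest to GNA11 (0.14) and VPS36 (0.15), and IREB2 to KIF5B (0.085) and MYSM1 (0.092). With so many candidates and 6 values a near match is easily found, and the names are given as a description.

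Of 66 other names of iron and haem handling that were listed, 57 were found. At D15, 2 of 41 with at least 1 FPKM were past the limit and higher in Jersey, at D90 5 of 40 and at D250 5 of 40, against 6.45%, 6.58% and 10.9% of all genes. None was lower past it, against 2.12%, 5.17% and 1.37% of all genes. Their median log2 ratio was 0.10, 0.0045 and -0.20. With the sum rescaling 5, 7 and 3 were higher and ALAD was lower at D250, with the upper quartile 2, 4 and 4 were higher, and with a pseudocount of 0.1 FPKM 3, 6 and 5 were higher and SLC39A14 and NEO1 at D15 and ALAD at D90 were lower. No gene of this list was past the limit on all 3 days, except FBXL5 and BACH1 with the sum rescaling. Between days for Kashmiri, 3 of 41 (D15 to D90), 0 of 40 (D90 to D250) and 2 of 41 (D15 to D250) passed either way. The shares of all genes were 7.5%, 1.98% and 4.05%. For Jersey, 4, 3 and 9 of 40 passed, against 6.76%, 4.18% and 12.6% of all genes. The genes named below for a change between days past the limit are among these.

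Most of those past the limit at D90 and D250 were sensing genes. FBXL5, the ubiquitin ligase subunit that senses iron and marks IREB2 for degradation, was at 19.4, 21.6 and 36.9 FPKM for Kashmiri and at 68.7, 163 and 791 FPKM for Jersey. Jersey exceeded Kashmiri by a log2 ratio of 2.86 at D90 and 4.39 at D250, and every Jersey value was above every Kashmiri value. The same held for BACH1, CD163, LRP1 and ALAS1 of this list, and for 16.2% of the 10310 genes considered on all days. BACH1, a haem-binding repressor of HMOX1, was at 4.84, 3.02 and 5.78 FPKM for Kashmiri and at 17.9, 25.0 and 108 FPKM for Jersey. NFE2L2, an activator of HMOX1 and of the ferritin genes, had log2 ratios of 3.25 at D90 and 2.74 at D250, and HIF1A, a hypoxia-inducible factor, had 3.03 and 3.17. These 4 of the 6 sensing genes were past the limit at D90 and D250 and none at D15, against 6.58%, 10.9% and 6.45% of all genes higher past it. EPAS1, another hypoxia-inducible factor of the list, was lower in Jersey on each day (log2 ratios -0.65, -1.46 and -0.37). KEAP1 was higher, with log2 ratios of 0.33, 0.71 and 0.41. With the sum rescaling FBXL5 and BACH1 passed at D15 too, and NFE2L2 missed the limit at D250. HIF1A and NFE2L2 were also higher past the limit at D90 than at D15 within the Jersey breed (log2 ratios 2.90 and 2.70).

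In the haem group, CD163, the scavenger receptor for haemoglobin, and LRP1, a receptor for haem bound to haemopexin, were past the limit at D15, with log2 ratios of Jersey over Kashmiri of 3.08 and 3.65. LRP1 was past it at D90 too (2.09), but not with the upper quartile rescaling. CD163 is also one of the macrophage markers, and was at 2.73, 9.03 and 15.9 FPKM for Kashmiri and 30.5, 37.1 and 57.7 FPKM for Jersey. BLVRA, which reduces biliverdin from haem breakdown, had Jersey values of 147, 52.8 and 23.9 FPKM (log2 ratio of D250 over D15 -2.57). For Kashmiri its log2 ratio of D90 over D15 was -2.18, which missed the limit with the sum rescaling. HMOX2, the constitutive haem oxygenase, ranged from 44.7 to 151 FPKM and was not past the limit between the breeds.

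None of the 8 haem synthesis genes was past the limit between the breeds, against 8.57%, 11.7% and 12.3% of all genes. Under the alternatives, ALAS1 was higher past it at D15 with the pseudocount of 0.1 FPKM and with the sum, and ALAD lower at D90 with that pseudocount and at D250 with the sum. ALAD, an early enzyme of haem synthesis, was lower at D90 than at D15 past the limit in both breeds, with 51.4 and 9.23 FPKM for Kashmiri and 17.4 and 1.89 FPKM for Jersey. Of the mitochondrial iron genes, SLC25A37, the iron importer mitoferrin 1, was past the limit at D250, with 8.43 FPKM for Kashmiri and 51.3 FPKM for Jersey, but with neither rescaling. GLRX5, a protein of iron-sulfur cluster assembly, had a log2 ratio of D250 over D15 of -2.06 for Jersey.

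In the storage group, NCOA4, the receptor that delivers ferritin for breakdown, was at 132, 28.5 and 65.9 FPKM for Kashmiri and at 35.6, 67.2 and 119 FPKM for Jersey. Its log2 ratio of D90 over D15 was -2.17 for Kashmiri, which missed the limit with the sum rescaling, and 0.90 for Jersey. SLC39A14, an importer of zinc and non-transferrin-bound iron, was lower in Jersey on each day, with 8.02, 2.87 and 2.90 FPKM for Kashmiri and 1.91, 1.07 and 2.23 FPKM for Jersey. HAMP, the gene of the hormone hepcidin, and CP, which encodes the ferroxidase ceruloplasmin, did not exceed 0.419 and 0.0435 FPKM in any group. LTF and LCN2 were not analysed here.

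**Figure D5:**
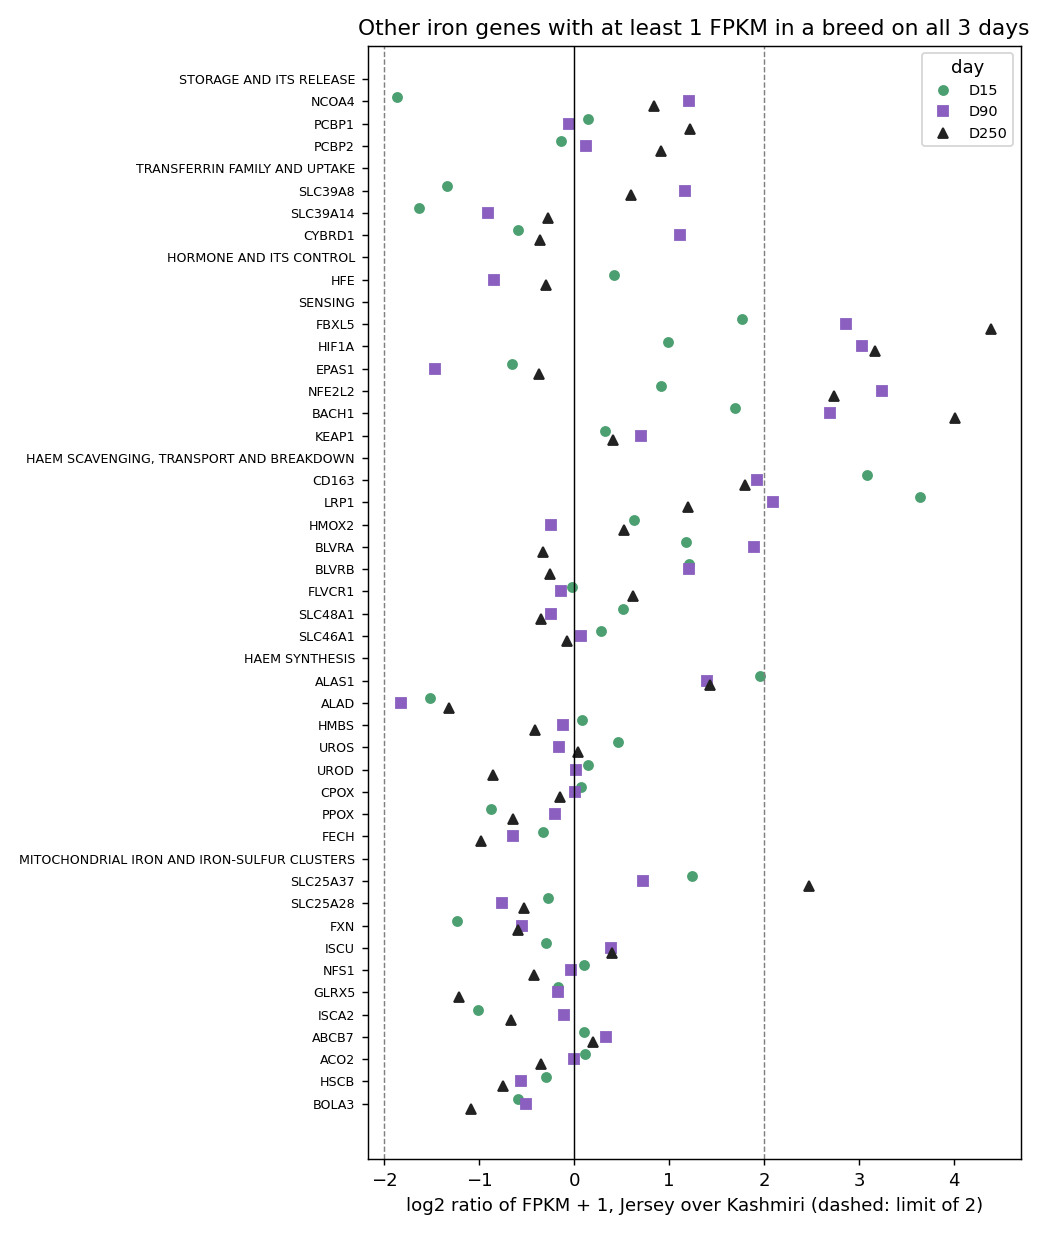
Log2 ratio of FPKM plus 1, Jersey over Kashmiri (x axis), at D15, D90 and D250 for the other iron genes with at least 1 FPKM in a breed on all 3 days (y axis, grouped by role), with dashed lines at the limit of 2 either way. FBXL5 and BACH1 reach 4.39 and 4.01 at D250, and no point of these values, which are not rescaled, lies below -2.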

How the data were processed

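Per the methods of the study and the submitters' processing notes, reads were trimmed (Trimmomatic), mapped to UMD3.1 (Bowtie2 and TopHat) and quantified by the authors with the Cufflinks suite, which gave the deposited FPKM, as a single value for a gene in each breed on each day. Columns named Local were taken as Kashmiri, the other breed of the series, and stages 1, 2 and 3 as D15, D90 and D250. Of entries that repeat a name, the one with the highest mean was kept, and joined names were split to find a gene. The reads behind an FPKM are unknown, so no interval was computed. Ratios had a pseudocount of 1 FPKM, and 9 pairs of groups were compared. Alternatives were a pseudocount of 0.1 FPKM, a minimum of 0.01 FPKM, a log2 limit of 1, rescaling by the sum or the upper quartile, and summed entries. The code was tested on simulated data. The genes named were the 10 listed, FTL, HAMP, LTF, LCN2, CP, SLC39A14, NCOA4, CD163 and FBXL5, genes past the limit on all 3 days, and the 2 nearest patterns. Other iron genes and single markers were picked for naming after their values were seen. The iron genes and the lists were chosen with earlier results of these data known. Python 3.11.15 was used with pandas 2.3.3, numpy 2.4.6 and matplotlib 3.10.9.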

Additional observations from a re-analysis of the deposited data

Results flagged for a closer look

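HMOX1 went opposite ways from D15 to D250 in the 2 breeds. Its log2 ratio was 1.40 for Kashmiri and -1.17 for Jersey, and this difference was not tested, since each breed had 1 value per day. The second entry named SLC11A1, which was left out of the ratios given for that gene and used only where the entries of a name were summed, had 25.7 FPKM in Jersey at D250 and 2.08 FPKM in Kashmiri at D250.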

How the results depend on the processing

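No paired analysis was possible because the values were 1 per group and not per cow, and for the same reason no replicate could be left out. The number of the 9 iron genes past the limit depended on the limit and the scaling more than on the pseudocount. With an absolute log2 ratio of 1 it was 5, 1 and 4 in Kashmiri cattle (D15 to D90, D90 to D250, D15 to D250), 4 and 7 in Jersey cattle (D90 to D250, D15 to D250) and 7 between the breeds at D250. After rescaling to the sum of the named genes without the milk protein genes it was 2, 1 and 4 in Kashmiri cattle, 1 (FTH1 from its 0) and 1 in the same Jersey comparisons and 2 between the breeds at D250. With FPKM rescaled by the upper quartile it was 2 between D15 and D90 and 2 between D15 and D250 in Kashmiri cattle, 1 between D15 and D250 in Jersey cattle and 2 between the breeds at D250. With a pseudocount of 0.1 FPKM it was 2 between D15 and D250 in Kashmiri cattle. With entries listed at 0 left out, chosen after the data were seen, it was 1 from D90 to D250 for Jersey. The other 45 of 63 recomputed counts stayed within a factor of 1.5, and no single ratio past the limit changed its sign. With the sum, the median of all genes shifted to 0.81 from D15 to D250 in Kashmiri cattle and to -0.74 between the breeds at D250. Rescaling to the sum also changed the sign of smaller ratios, such as that of FTH1 between D90 and D250 in Kashmiri cattle, from -0.57 to 0.12. The cause of these shifts was not tested. The unknown read depth limits what a low FPKM can show, such as those of STEAP4 and IREB2 in Kashmiri cattle.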
